A study of Mus musculus with 8 samples.

Results

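Forkhead factors are transcription factors that bind DNA through a shared winged-helix domain. Here 10 of them, listed as forkhead factors of ovarian somatic cells, were followed, although not all are known mainly from those cells. They were Foxl2, Foxo1, Foxo3, Foxo4, Foxc1, Foxc2, Foxp1, Foxp2, Foxk1 and Foxj2. They were found by their mouse Entrez gene IDs, and all 10 were among the 24232 genes with such an ID on the array, where 21 probes read them. A gene was tested if the median of its scaled signal over the arrays was at least 10 units, which 9 of the 10 members passed and Foxc2 did not, as did 15645 genes in all.

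The cells were primary follicular cells from preantral follicles of 8-week-old female Swiss mice, grown for 9 days and described by the submitters as mostly granulosa cells. Every culture was transfected with 12 pmol of siRNA together with a pDsRed reporter plasmid, either a control pool or a pool against FOXL2, with 24 h of siRNA treatment, and given 100 nM 17β-estradiol (E2) or vehicle for 10 h up to lysis. The labels read as if the hormone fell within those 24 h, and the text of the study as if it followed them. For estradiol experiments the study's methods give a medium without phenol red or added androstenedione and with charcoal-treated serum. They do not limit it to the cultures given E2. Crossing both factors gave 4 groups of 2 arrays, all 8 on 1 slide with 1 scan, and each replicate was a pool of 5 mice. Each siRNA was thus read without and with hormone. Because the cells were bulk cultures, fewer cells of a type and less RNA per cell cannot be told apart.

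Most forkhead proteins are controlled after translation as well as by transcript level. FOXO proteins are held out of the nucleus when AKT phosphorylates them downstream of insulin and growth factor receptors, and in the nucleus they activate genes of cell cycle arrest and metabolism. FOXL2 is the granulosa cell member of the family and is needed to keep the ovarian identity of these cells, while FOXO1 is abundant in granulosa cells of growing follicles. FOXP proteins mostly act as repressors.

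The arrays went against the label of the knockdown at the Foxl2 gene level. Values are log2 of the spot intensity after scaling every array to its 75th percentile. Foxl2 gene signal was 13.46 and 13.02 without and 12.95 and 12.77 with E2 on the arrays labelled control siRNA, and 13.41 and 13.40 without and 13.13 and 12.97 with E2 on those labelled FOXL2 siRNA. The arrays labelled FOXL2 siRNA lay inside the range of the others, so groups are named below as the arrays labelled FOXL2 siRNA or control siRNA, and each direction between siRNAs rests on those labels. Between these labels, averaged over both treatments, Foxl2 differed by 0.18 ± 0.10 (SE; limma adjusted p = 0.334), with a 95% interval from -0.06 to 0.42.

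Both Foxl2 probes name the same RefSeq transcript, and they moved apart. Probe A_55_P2037732 carried 99.6% of the summed intensity and so set the gene value. Its log2 signal was 14.46, 14.01, 13.94 and 13.76 on the arrays labelled control siRNA, both vehicle arrays first, and 14.41, 14.40, 14.12 and 13.96 on those labelled FOXL2 siRNA. These ranges overlapped. Probe A_55_P2041668, with 0.43% of the intensity, read 7.01, 6.60, 6.77 and 6.36 on the arrays labelled control siRNA, and 5.83, 5.48, 6.04 and 5.51 on those labelled FOXL2 siRNA. All 4 of the latter were lower, by 0.97 ± 0.19 on average (limma adjusted p = 0.02 over all probes). That call was lost without the array of control siRNA with E2 replicate 1, FOXL2 siRNA with vehicle replicate 2 or FOXL2 siRNA with E2 replicate 2, with adjusted p from 0.0702 to 0.0854, and with no filter on low signal (0.0535). With normexp background correction the difference was -0.51 (adjusted p = 0.045). Where in the transcript either probe lies was not given in the sources used here.

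Foxl2os, a non-coding RNA gene whose RefSeq span lies beside that of Foxl2 on the same chromosome without overlapping it, is no member and was looked up after its values were seen. Its gene signal was 8.26, 8.75, 8.48 and 8.47 on the arrays labelled control siRNA and 7.94, 7.85, 8.13 and 8.27 on those labelled FOXL2 siRNA. The ranges overlapped only at their ends, with a difference of -0.45 ± 0.12 (limma adjusted p = 0.0453), and the call was lost without any array but control siRNA with vehicle replicate 1, with adjusted p from 0.081 to 0.13. It was also lost under 5 of 8 other processing choices (from 0.0522 to 0.0803).

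The start regions of the members whose signal differed between the siRNAs are shown with that of Foxl2, since these are the genes the results turn on. RefSeq (GRCm38.p6) gave promoter windows for 6 of the 10 members, with 3 windows for Foxp1. Each sequence below is the 250 bases before a start, 5′ to 3′ on the gene's own strand. Capitals mark the core forkhead motif TAAACA and the GC box GGGCGG, on either strand.
Foxl2, chr9:98955357-98955606, plus strand: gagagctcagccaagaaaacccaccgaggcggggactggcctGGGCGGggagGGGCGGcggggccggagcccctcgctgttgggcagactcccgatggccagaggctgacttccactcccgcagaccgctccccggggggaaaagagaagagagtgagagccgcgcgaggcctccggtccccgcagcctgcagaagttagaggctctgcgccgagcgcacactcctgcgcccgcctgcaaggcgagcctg
Foxo1, chr3:52268087-52268336, plus strand: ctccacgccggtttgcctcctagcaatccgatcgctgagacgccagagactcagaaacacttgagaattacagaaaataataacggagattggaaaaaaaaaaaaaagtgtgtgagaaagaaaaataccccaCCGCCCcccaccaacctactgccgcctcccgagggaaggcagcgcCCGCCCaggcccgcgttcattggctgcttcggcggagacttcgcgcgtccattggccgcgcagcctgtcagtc
Foxp1, the window farthest upstream, chr6:99520994-99521243, minus strand: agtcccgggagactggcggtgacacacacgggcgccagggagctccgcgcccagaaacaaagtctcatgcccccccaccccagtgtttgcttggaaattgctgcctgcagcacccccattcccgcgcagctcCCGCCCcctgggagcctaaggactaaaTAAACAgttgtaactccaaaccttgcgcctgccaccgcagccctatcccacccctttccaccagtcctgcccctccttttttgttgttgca

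Foxp1 was the only member with a match to TAAACA in a window. Its 3 windows held 1, 2 and 1 matches, while 12% of all 32851 windows held at least 1. The windows of Foxl2 and Foxo1 held none, and each held 2 matches to GGGCGG, which occurs in 32.7% of all windows. Matches are a description of the letters, and factor binding was not measured on these arrays.

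Foxo1 signal was lower on every array labelled FOXL2 siRNA, most of all with vehicle. FOXO1 is the effector of insulin and FSH signalling in granulosa cells that AKT inactivates. Its gene signal was 11.30 and 10.78 without and 10.83 and 10.48 with E2 on the arrays labelled control siRNA, and 9.97 and 9.70 without and 10.40 and 9.98 with E2 on those labelled FOXL2 siRNA. The arrays labelled FOXL2 siRNA lay between 9.70 and 10.40 and the others between 10.48 and 11.30, without overlap.

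With vehicle, Foxo1 fell by 1.20 ± 0.22, to 43.4% of the control level (limma adjusted p = 0.0188; 95% interval -1.71 to -0.70). With E2 the difference was -0.46 ± 0.22 and did not pass (adjusted p = 0.352), although it was called with replicate number as a block (adjusted p = 0.00384). Averaged over both treatments Foxo1 fell by 0.83 ± 0.15 (adjusted p = 0.012). The averaged fall was called without any single array, with adjusted p from 0.0111 to 0.0496. The fall with vehicle was not called without control siRNA with vehicle replicate 1 (0.0739), without either array of FOXL2 siRNA with vehicle (0.057 without replicate 1 and 0.122 without replicate 2), with the brightest probe alone (0.0518) or with no intensity trend in the spread (0.054).

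Both Foxo1 probes name the same RefSeq transcript and moved together. Probe A_51_P138044 read 11.61, 10.84, 11.11 and 10.77 on the arrays labelled control siRNA and 10.25, 10.01, 10.72 and 10.24 on those labelled FOXL2 siRNA. Probe A_52_P453884 read 10.90, 10.71, 10.47 and 10.11 against 9.61, 9.30, 9.99 and 9.67, again without overlap. Their averaged falls were 0.78 ± 0.19 (limma adjusted p = 0.0438 over all probes) and 0.91 ± 0.13 (adjusted p = 0.00466). The first was lost when any array was left out except control siRNA with vehicle replicate 2 or FOXL2 siRNA with E2 replicate 1, with adjusted p from 0.0616 to 0.144, and under 3 of 6 other processing choices (from 0.0556 to 0.113). The second was called without each of the 8.

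The E2 differences of Foxo1 had opposite signs under the 2 siRNAs and did not pass adjustment. The change was -0.38 ± 0.22 with control siRNA and 0.36 ± 0.22 with FOXL2 siRNA, neither called (limma adjusted p = 1 for both). The difference between both E2 effects was 0.74 ± 0.31 (unadjusted p = 0.0441, adjusted p = 0.99), with a 95% interval from 0.03 to 1.46. With replicate number as a block it was called (limma adjusted p = 0.00887).

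Foxp1 signal was also lower on all 4 arrays labelled FOXL2 siRNA, by less than Foxo1 but with tighter replicates. FOXP1 is a transcriptional repressor expressed in many tissues. Its gene signal was 10.27 and 10.30 without and 10.35 and 10.43 with E2 on the arrays labelled control siRNA, and 10.09 and 10.00 without and 10.01 and 9.82 with E2 on those labelled FOXL2 siRNA. The highest array labelled FOXL2 siRNA, at 10.09, was below the lowest labelled control siRNA, at 10.27.

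With E2, Foxp1 fell by 0.48 ± 0.10 (limma adjusted p = 0.0395). With vehicle the difference was -0.24 ± 0.10 (adjusted p = 0.246), and averaged over both treatments Foxp1 fell by 0.36 ± 0.07 (adjusted p = 0.0153; 95% interval -0.52 to -0.19). The call with E2 was lost when any of the 8 arrays was left out, with adjusted p from 0.0592 to 0.248, and with normexp (0.0514), no filter (0.0527), no intensity trend (0.0854) or only the groups compared (0.0991). The averaged call was lost without any of the 4 arrays of replicate 2, with adjusted p from 0.0521 to 0.0623 and changes from -0.35 to -0.31. E2 changed Foxp1 by 0.11 ± 0.10 with control siRNA and by -0.14 ± 0.10 with FOXL2 siRNA (adjusted p = 1 for both).

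Of the 5 Foxp1 probes, A_55_P2105446 was near background throughout and was not tested. The brightest, A_55_P2088825, read 12.13, 12.13, 12.22 and 12.30 on the arrays labelled control siRNA and 11.97, 11.84, 11.85 and 11.65 on those labelled FOXL2 siRNA. The latter were all lower. The 4 tested probes gave averaged differences of -0.35 ± 0.08 for A_52_P276792, -0.37 ± 0.07 for A_55_P2088825, -0.28 ± 0.13 for A_55_P2105436 and -0.25 ± 0.15 for A_55_P2105452. All 4 were negative, and the first 2 passed (limma adjusted p = 0.0427 and 0.0196), each with no overlap between the siRNAs. The call of A_52_P276792 was lost without any array but control siRNA with vehicle replicate 1 (adjusted p from 0.0643 to 0.15) and under 4 of 6 other processing choices (from 0.0593 to 0.102). That of A_55_P2088825 was lost without any replicate 2 or without control siRNA with E2 replicate 1 (from 0.0545 to 0.08), and with no intensity trend (0.0729).

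**Figure D1:**
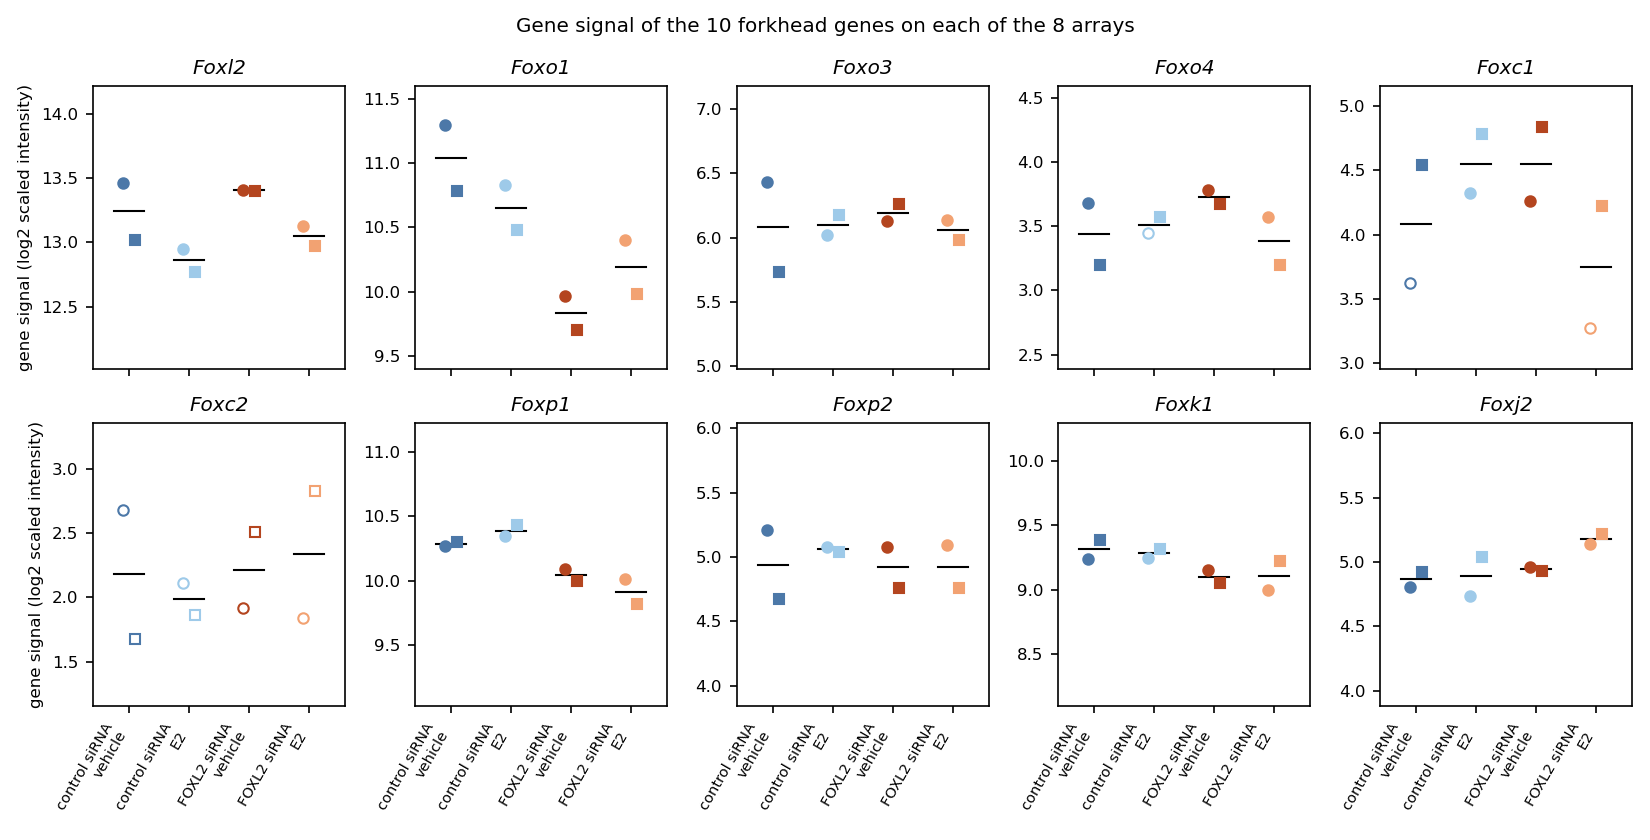
Log2 scaled gene signal (vertical axis, a separate range for each gene) of the 10 forkhead genes in the 4 groups, with 1 point per array (circles replicate 1, squares replicate 2) and a line at the group mean. Open points were not well above background. Foxo1, Foxp1 and Foxk1 show no overlap between the arrays labelled FOXL2 siRNA and control siRNA, and Foxc2 is open on all 8 arrays.

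Foxk1, a forkhead repressor of autophagy and a regulator of glycolysis, also had no overlap between the siRNAs but did not pass the test. Its single probe read 9.24, 9.39, 9.25 and 9.32 on the arrays labelled control siRNA and 9.15, 9.05, 9.00 and 9.22 on those labelled FOXL2 siRNA. The averaged difference was -0.20 ± 0.08 (limma adjusted p = 0.176). In all, 3 of the 9 tested members had no overlap between the 4 arrays of each siRNA, beside 20.9% of all genes tested.

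Foxo3 and Foxo4, the other FOXO factors of the group, showed no called change. Foxo3, which keeps primordial follicles dormant from within the oocyte, had gene signals from 5.73 to 6.43 on the arrays labelled control siRNA and from 5.98 to 6.26 on those labelled FOXL2 siRNA, which overlapped. Its averaged difference was 0.04 ± 0.17 (limma adjusted p = 0.919; 95% interval -0.36 to 0.44). Its 2 probes gave -0.08 ± 0.16 and 0.20 ± 0.24. Foxo4 lay from 3.20 to 3.78 over all arrays, close to background, with a probe well above it on 7 of 8 arrays. Its averaged difference was 0.08 ± 0.26 (adjusted p = 0.883), and 1 of its 3 probes, A_55_P2113031, cleared background on none of the 8.

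Foxc1 and Foxc2 are paralogs of mesodermal and vascular development, and Foxc1 is also needed for ovarian follicle development. Foxc1 read 3.62 and 4.54 without and 4.32 and 4.78 with E2 on the arrays labelled control siRNA, and 4.26 and 4.84 without and 3.27 and 4.22 with E2 on those labelled FOXL2 siRNA. Its replicates differed more than those of any other tested member, with a mean SD within groups of 0.52 against a median of 0.12 over all genes tested, and it was well above background on 6 of 8 arrays. The averaged difference was -0.16 ± 0.33 (limma adjusted p = 0.807). Foxc2, with signals from 1.68 to 2.83, cleared background on none of the 8 arrays, so no fold is given.

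Foxp2, a neuronal FOXP repressor, lay from 4.67 to 5.21 over all arrays, with an averaged difference of -0.08 ± 0.20 (limma adjusted p = 0.848). Of its 3 probes, A_55_P2113399 cleared background on none of the 8 arrays. Foxj2, a broadly expressed activator, read 4.81, 4.92, 4.74 and 5.04 on the arrays labelled control siRNA and 4.96, 4.93, 5.14 and 5.22 on those labelled FOXL2 siRNA. Its averaged difference was 0.18 ± 0.16 (adjusted p = 0.526), with overlapping arrays.

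Over the 9 tested members, the siRNA comparison called 1 of 9 genes with vehicle (Foxo1), beside 6.53% of all genes tested. It called 1 of 9 with E2 (Foxp1), beside 4.38%, and 2 of 9 averaged over both treatments, beside 12.6%. All of these calls were lower on the arrays labelled FOXL2 siRNA. The members' median averaged change was -0.08, with -0.00 over all genes tested. Among the 17 tested probes, 1 was called with vehicle beside 3.61% of all probes, 1 with E2 beside 2.4%, and 5 averaged beside 7.94%. The 5 were the dimmer Foxl2 probe, both Foxo1 probes and 2 of Foxp1, all lower.

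**Figure D2:**
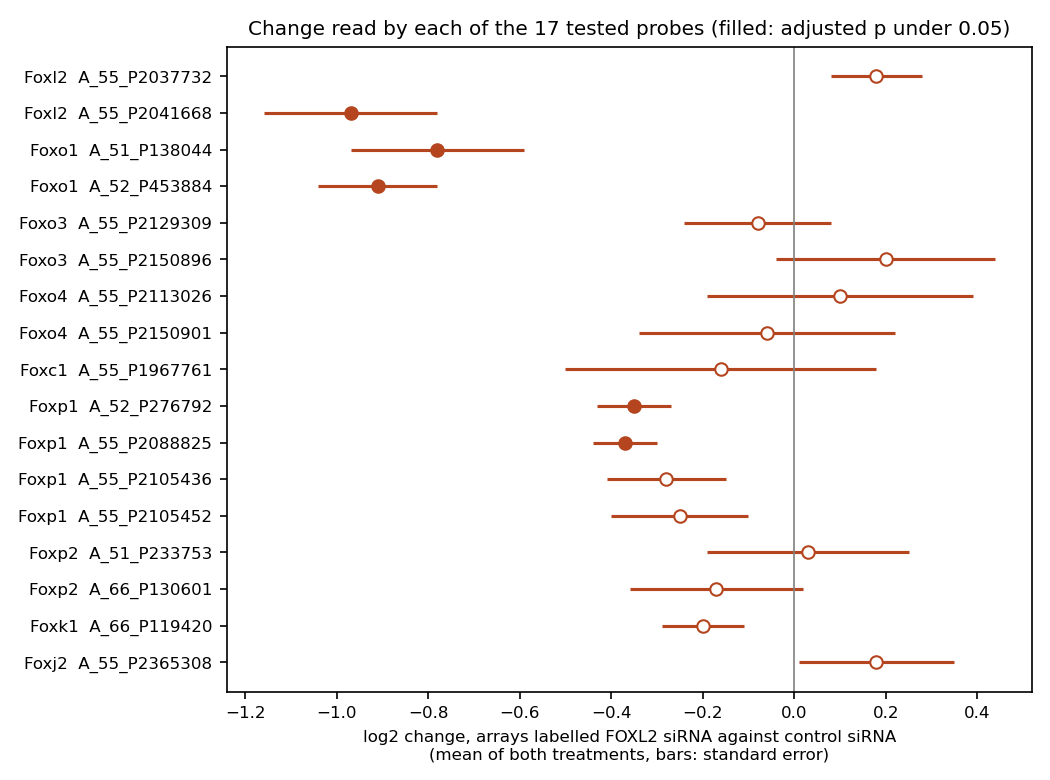
Averaged log2 change (horizontal axis) read by each of the 17 tested probes of the forkhead genes (rows), arrays labelled FOXL2 siRNA against control siRNA, with the standard error as bars. The 5 filled points passed the adjusted threshold, and the 2 Foxl2 probes lie on opposite sides of 0, at 0.18 and -0.97.

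For E2, the study's methods count a gene as a target when group means differ by more than 1 on the log2 scale and by more than 2 times the sum of both SDs, without a p-value. The same rule was applied here to the siRNA comparisons, for which the methods do not state it. The SDs here came from values without the study's subtraction of a median per replicate, so the required difference can differ from the study's. Foxo1 alone among the members met the rule between the siRNAs with vehicle, with a difference of -1.20 against a required 1.12. Of all genes tested, 2.94% met it there. No member met it with E2 between the siRNAs, where 2.35% of all genes did, nor for E2 with control siRNA (0.454% of genes) or with FOXL2 siRNA (0.217%).

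E2 itself left every member without a call. Limma called 0 of 9 members for E2 with control siRNA, beside 0.0192% of all genes, 0 of 9 with FOXL2 siRNA, beside 0.0128%, and 0 of 9 averaged over both siRNAs, beside 0% of all genes. The difference between both E2 effects called 0 of 9 members, beside 0.243%. At a limma unadjusted p under 0.05, each of these 4 comparisons counted 1 of 9 members. In the same order they counted 716, 478, 360 and 767 of all 15645 genes tested. The member was Foxl2 for the first 3 and Foxo1 for the difference. These comparisons share arrays with each other and with the siRNA comparisons.

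Foxl2 had the lowest unadjusted p of the members in these E2 comparisons. The E2 difference in its gene signal was -0.38 ± 0.15 with control siRNA, -0.36 ± 0.15 with FOXL2 siRNA and -0.37 ± 0.10 averaged over both (limma adjusted p = 1 in each). In gene signal, which the brighter probe set, both E2 arrays read below both vehicle arrays within each siRNA. The dimmer probe A_55_P2041668 changed with E2 by -0.24 ± 0.27 with control siRNA and by 0.12 ± 0.27 with FOXL2 siRNA. Its averaged change was -0.06 ± 0.19 (limma unadjusted p = 0.764). Foxc1 had changes of 0.47 ± 0.47 and -0.81 ± 0.47, and the remaining members lay between -0.38 and 0.36.

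**Figure D3:**
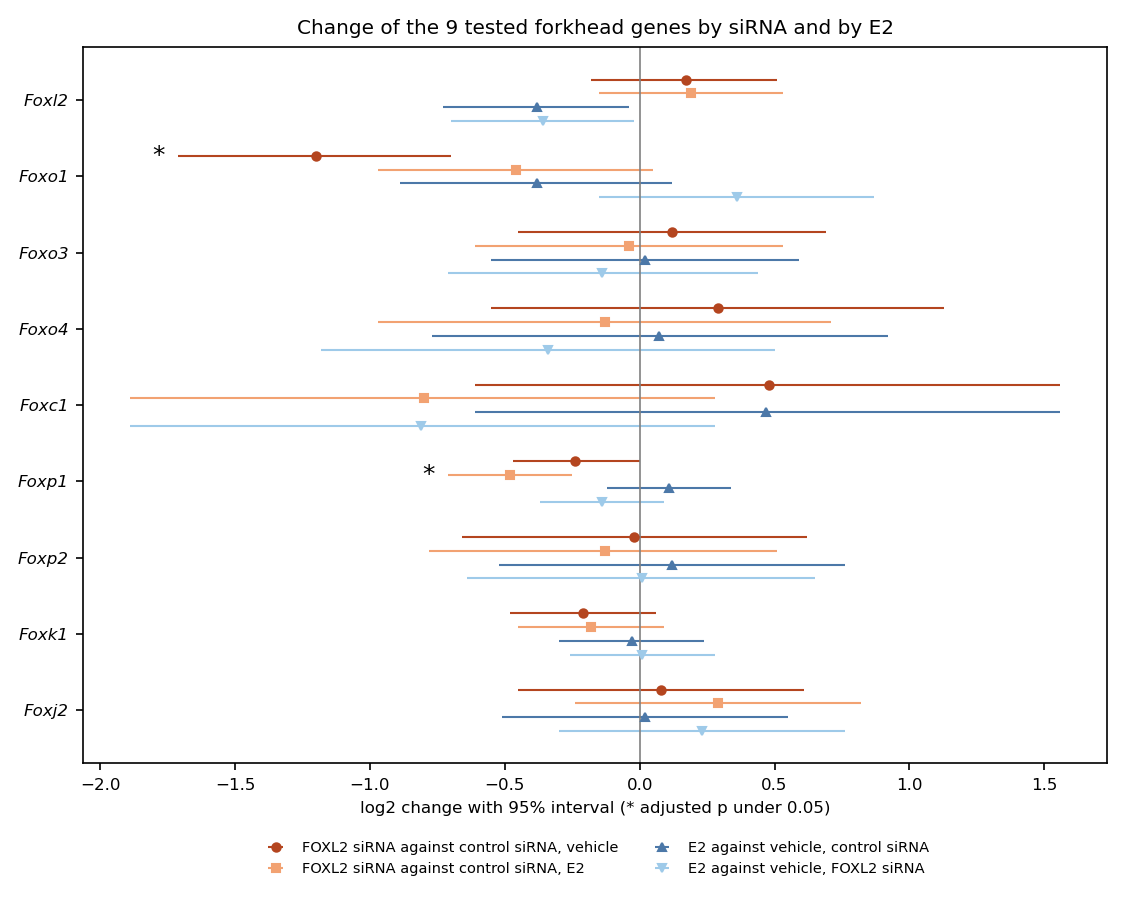
Log2 change (horizontal axis) with its 95% interval for the 9 tested forkhead genes (rows), for FOXL2 siRNA against control siRNA with vehicle and with E2 and for E2 against vehicle with each siRNA. Stars mark the only calls in these 4 comparisons, Foxo1 with vehicle at -1.20 and Foxp1 with E2 at -0.48.

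Outside the 10 members, 3 forkhead genes were called between the siRNAs. Of 34 other forkhead genes measured, 18 were tested, 10 were well above background on all 8 arrays and 12 on none. Averaged over both treatments, 2 rose (Foxs1 and Foxo6), 1 fell (Foxm1) and 15 were not called, with a median change of -0.01. That is 16.7% called, beside 12.6% of all genes tested. With vehicle 11.1% were called, beside 6.53%, and with E2 16.7%, beside 4.38%.

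Foxs1, a forkhead gene of vascular mural cells and sensory neurons, read 6.91, 6.92, 6.78 and 7.41 on the arrays labelled control siRNA and 8.55, 8.98, 8.21 and 8.45 on those labelled FOXL2 siRNA. It rose by 1.55 ± 0.16 on average (limma adjusted p = 0.00117), by 1.86 ± 0.23 with vehicle (0.00479) and by 1.24 ± 0.23 with E2 (0.0274). Foxo6, the FOXO factor best known from brain, read 12.00, 11.83, 12.08 and 12.07 against 12.85, 12.68, 12.89 and 12.66. It rose by 0.77 ± 0.08 on average (adjusted p = 0.00107), by 0.85 ± 0.11 with vehicle (0.00575) and by 0.70 ± 0.11 with E2 (0.0156). The groups of both genes were apart on all arrays. Without any single array the averaged and vehicle calls of both were made. Their calls with E2 were lost without control siRNA with E2 replicate 1 or FOXL2 siRNA with E2 replicate 1, and also without control siRNA with E2 replicate 2 for Foxo6 (adjusted p from 0.0716 to 0.101) and FOXL2 siRNA with E2 replicate 2 for Foxs1 (from 0.0654 to 0.163). Other processing removed the E2 call of Foxs1 in 3 of 9 choices (from 0.0585 to 0.0676) and that of Foxo6 in 1 (0.0539).

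Foxm1, which drives genes of mitosis, read 8.62, 8.77, 8.69 and 8.92 on the arrays labelled control siRNA and 8.28, 8.13, 8.26 and 8.11 on those labelled FOXL2 siRNA, with no overlap. It fell by 0.56 ± 0.09 on average (limma adjusted p = 0.00791), a call made without any single array. With E2 it fell by 0.62 ± 0.13 (0.0442), which was lost when any of the 8 arrays was left out, with adjusted p from 0.0578 to 0.253, and under 5 of 9 other processing choices (from 0.0524 to 0.0893).

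**Figure D4:**
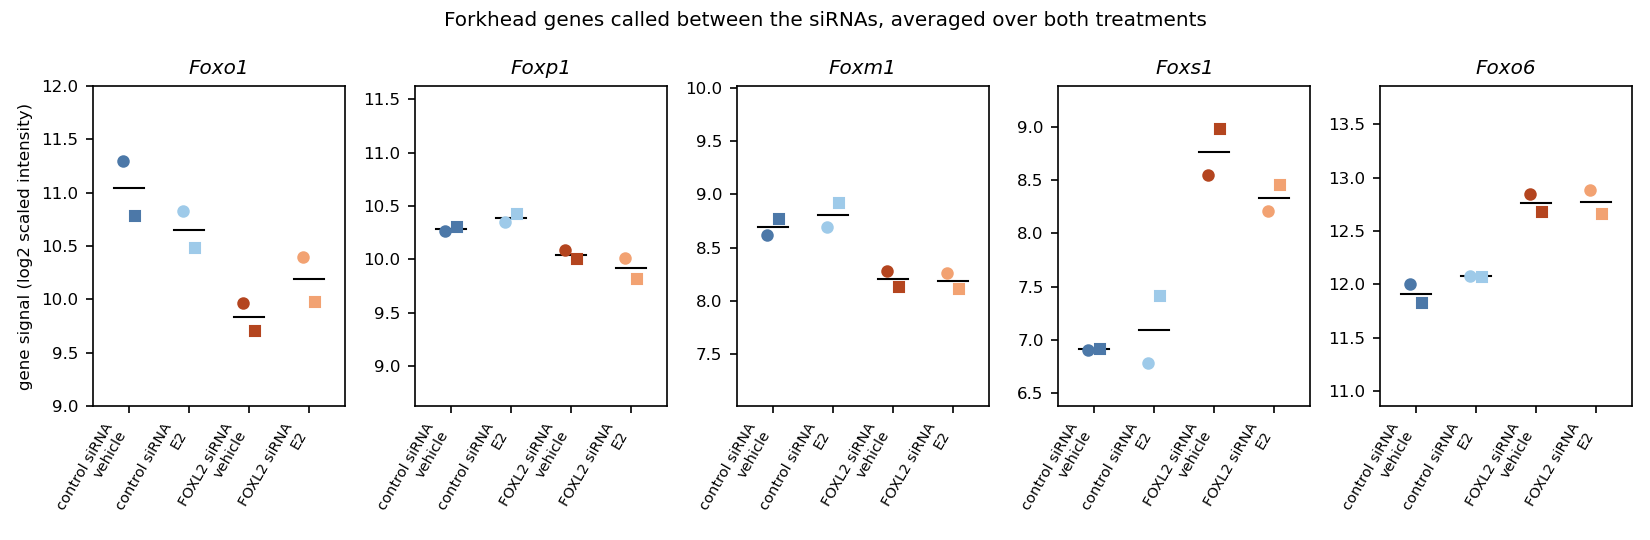
Log2 scaled gene signal (vertical axes of equal length) on each array for the 5 forkhead genes called between the siRNAs when averaged over both treatments, drawn as circles for replicate 1 and squares for replicate 2 with lines at the group means. Foxo1, Foxp1 and Foxm1 are lower and Foxs1 and Foxo6 higher on the arrays labelled FOXL2 siRNA, without overlap.

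Genes of the AKT pathway, which sets where FOXO proteins reside, moved in both directions between the siRNAs. Of 27 tested, averaged over both treatments, 2 rose, 5 fell and 20 were not called, with a median change of 0.01. That is 25.9% called, beside 12.6% of all genes tested. Sgk1, a kinase that phosphorylates FOXO factors as AKT does, fell by 1.09 ± 0.18 (limma adjusted p = 0.00664). The adaptors Irs1 and Irs2, which link the insulin receptor to PI3 kinase, fell by 0.87 ± 0.10 (0.00139) and 0.50 ± 0.10 (0.0137), and the insulin receptor Insr fell by 0.50 ± 0.10 (0.0179). The AKT phosphatase Phlpp2, which the naming rule leaves out, changed by -0.47 ± 0.09 (0.0175). The kinase Akt2 rose by 0.35 ± 0.06 (0.00745). The count was from 3 to 9 with 1 array left out, and lowest without control siRNA with E2 replicate 1 (3) and without either FOXL2 siRNA replicate 2 (4 each). Insr was not called without any of those 3 arrays or FOXL2 siRNA with vehicle replicate 1 (from 0.0565 to 0.0767), nor from its brightest probe alone (0.0555).

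With vehicle, Akt2 rose by 0.50 ± 0.08 (limma adjusted p = 0.0139) and Irs1 fell by 1.24 ± 0.14 (0.00305). With E2, Sgk1 fell by 1.58 ± 0.25 (0.0149) and Irs2 by 0.61 ± 0.13 (0.0476). These were the only calls by treatment, 7.41% of the 27 tested in each. Of all genes tested, 6.53% were called with vehicle and 4.38% with E2. The Akt2 call was lost without either array of FOXL2 siRNA with vehicle or control siRNA with vehicle replicate 2 (adjusted p from 0.0535 to 0.083), and with only the groups compared (0.0541). The Sgk1 call was lost without either array of control siRNA with E2 or FOXL2 siRNA with E2 replicate 2 (from 0.0611 to 0.111), and with no intensity trend (0.0519). The Irs2 call was lost without any array outside control siRNA with vehicle (from 0.0544 to 0.262), and under 5 of 9 other processing choices (from 0.0511 to 0.111).

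Known FOXO target genes likewise moved both ways. Of 26 tested, 3 rose, 4 fell and 19 were not called on average, with a median of -0.11. That is 26.9% called, beside 12.6% of all genes tested. The G1 cyclins Ccnd1 and Ccnd2, which FOXO proteins can repress, rose by 1.58 ± 0.33 (limma adjusted p = 0.0186) and 0.88 ± 0.13 (0.00438). The cyclin kinase inhibitor Cdkn2b, which FOXO proteins activate, rose by 1.03 ± 0.14 (0.00279). The transcription factor Klf2 fell by 0.56 ± 0.09 (0.00704), the coactivator-binding Cited2 by 0.49 ± 0.13 (0.0454), the ubiquitin ligase gene Fbxo32 by 0.45 ± 0.09 (0.0183) and the repressor Bcl6 by 0.37 ± 0.06 (0.00791). The count was from 4 to 7 with 1 array left out, and 4 without replicate 2 of control siRNA with vehicle or of FOXL2 siRNA with vehicle. Cited2 was lost without any array but FOXL2 siRNA with E2 replicate 1, with adjusted p from 0.0595 to 0.14, and under 2 of 8 other processing choices (0.0805 and 0.0954). Fbxo32 was lost without any replicate 2 or FOXL2 siRNA with vehicle replicate 1 (from 0.051 to 0.0732). Ccnd1 was lost without replicate 2 of either vehicle group or control siRNA with E2 replicate 1 (from 0.0504 to 0.0685).

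With vehicle, Cdkn2b rose by 1.27 ± 0.19 (limma adjusted p = 0.00952) and Ccnd2 by 0.97 ± 0.18 (0.0211), while Fbxo32 fell by 1.15 ± 0.13 (0.0036), Klf2 by 0.79 ± 0.13 (0.0134) and Bcl6 by 0.38 ± 0.09 (0.0457). The Bcl6 call was lost without any of the 8 arrays, with adjusted p from 0.076 to 0.222, and under 5 of 9 other processing choices (from 0.0535 to 0.17). Without FOXL2 siRNA with vehicle replicate 2, Cdkn2b (0.0718), Ccnd2 and Klf2 were not called either. Ccnd2 and Klf2 were also lost without control siRNA with vehicle replicate 1, and Ccnd2 without its replicate 2 and with no intensity trend (0.0613). With vehicle 19.2% of the 26 were called, beside 6.53% of all genes tested. With E2 none of the 26 passed limma, beside 4.38% of all genes tested. There, 6 of the 26 had a limma unadjusted p under 0.05, beside 2589 of all 15645 genes.

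Among 16 tested partners of FOXL2, which bind it or act with it on shared genes, 2 rose, 1 fell and 13 were not called, with a median of -0.01. That is 18.8% called, beside 12.6% of all genes tested. With vehicle 6.25% were called, beside 6.53%, and with E2 12.5%, beside 4.38%. Wt1, a regulator of gonad development, rose by 1.02 ± 0.07 on average (limma adjusted p = 0.000302), by 1.14 ± 0.10 with vehicle (0.00189) and by 0.91 ± 0.10 with E2 (0.00491). Gata4, a gonadal GATA factor, rose by 0.47 ± 0.09 (0.0113) and with E2 by 0.60 ± 0.12 (0.0351). The estrogen receptor gene Esr2 fell by 0.46 ± 0.09 (0.0168). The Gata4 call with E2 was lost without any array outside control siRNA with vehicle (adjusted p from 0.0588 to 0.207), and under 5 of 9 other processing choices (from 0.0556 to 0.126). The Esr2 call was lost without either array of control siRNA with E2 or FOXL2 siRNA with vehicle replicate 1 (from 0.0574 to 0.0602).

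**Figure D5:**
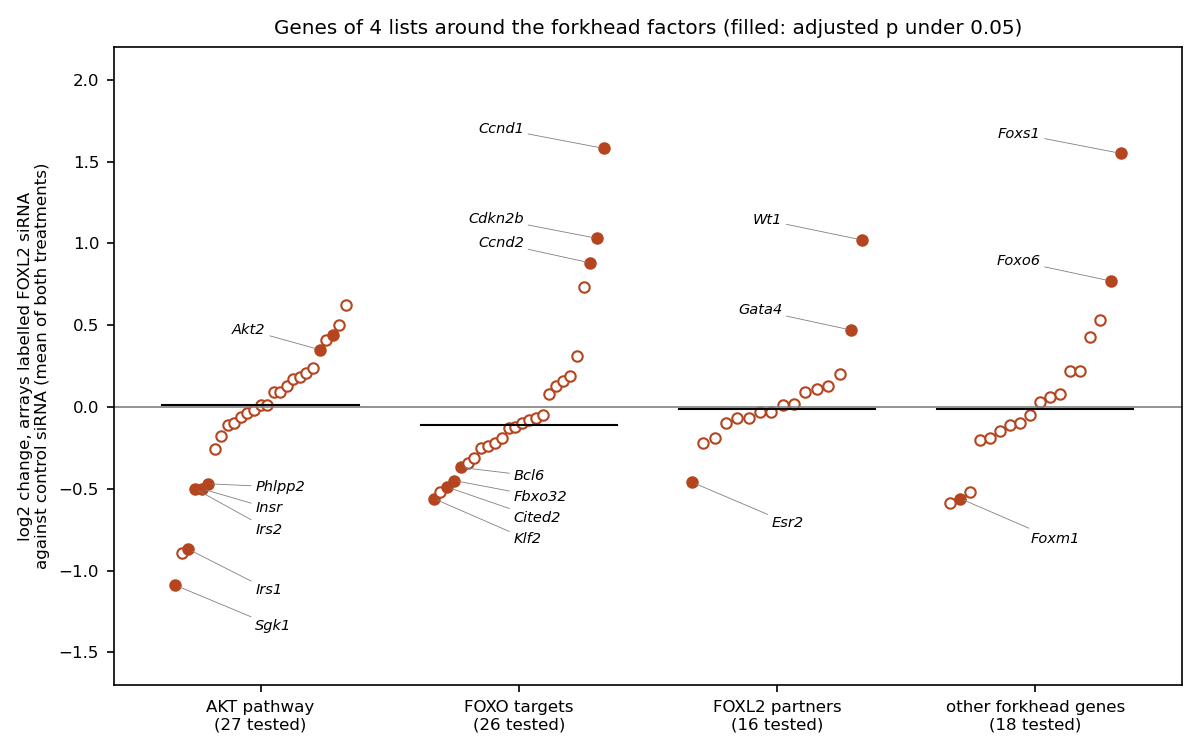
Averaged log2 change (vertical axis), arrays labelled FOXL2 siRNA against control siRNA, of every tested gene (points) of 4 lists, with the list median as a line. Filled points passed the adjusted threshold, and those described in the text carry names. All 4 medians lie within 0.11 of 0, and called genes lie on both sides in each list.

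For E2 with control siRNA, limma called none of the tested genes of these 4 lists, beside 0.0192% of all genes tested. With FOXL2 siRNA it called none either, beside 0.0128%. The lists held 18 other forkhead genes, 27 AKT pathway genes, 26 FOXO targets and 16 FOXL2 partners tested. In that order, 2, 1, 3 and 1 had a limma unadjusted p under 0.05 with control siRNA, beside 716 of all 15645 genes. With FOXL2 siRNA the counts were 1, 2, 1 and 0, beside 478 of all 15645 genes.

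The genes whose signal followed the members most closely over the 8 arrays were picked by the smallest root mean square difference of centred log2 values among 12616 genes well above background on every array. For Foxo1 these were Actr3b, Id3, Irs1 and Ccn5, each at 0.12, and Atp10d at 0.13. For Foxp1 these were Mybl2 at 0.05 and Got2, Nup54, Evl and Khk at 0.06 each. Irs1 is also in the AKT pathway list. Likeness over these arrays takes in the difference between the siRNAs, which averaged -0.87 for Irs1 and -0.83 for Foxo1. It is therefore no separate result. The likenesses are descriptions over arrays that share 1 slide.

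Some markers listed for other ovarian cell types were well above background beside granulosa markers, while others were on none of the arrays. Whether those cell types were present was not tested, and levels of different probes do not rank the types. Of 11 granulosa markers, 8 were well above background on all 8 arrays, the aromatase gene Cyp19a1 on 6, and the FSH receptor gene Fshr and Amh on none. Of the 9 tested, Wt1 rose and the gap junction gene Gja1 (-1.80) and the steroid enzyme gene Hsd17b1 (-1.47) fell on average. That is 33.3% called, beside 12.6% of all genes tested. The summed granulosa level was from 16.90 to 17.04 on the arrays labelled control siRNA and from 17.08 to 17.37 on those labelled FOXL2 siRNA.

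Of 7 theca markers, Cyp17a1, Star, Cyp11a1, Hsd3b1 and Ptch1 were well above background on all arrays and Lhcgr on none. Their summed level was from 16.93 to 17.18 on the arrays labelled control siRNA and from 16.61 to 16.88 on those labelled FOXL2 siRNA, while the median change of the 5 tested was 0.47. The sum followed Hsd3b1, which fell by 0.69 ± 0.11 (limma adjusted p = 0.00747), whereas Cyp11a1 rose by 0.89 ± 0.06 (0.000195). The other 3 were not called. That is 40% of the 5 called, beside 12.6% of all genes tested.

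Of 7 stromal markers, Dcn, Lum, Col1a1, Col1a2 and Acta2 were well above background on all arrays and Pdgfra and Tcf21 on none. Of 6 endothelial markers these were Kdr and Pecam1, with Cdh5, Tek, Emcn and Vwf on none, and of 6 macrophage markers Csf1r, Cd68 and Cd14, with Ptprc and Lyz2 on none. Of 8 oocyte markers only Gdf9 was above background. Of these 4 lists, 5 stromal, 2 endothelial, 4 macrophage and 1 oocyte markers were tested. Limma called none of them on average, beside 12.6% of all genes tested. A limma unadjusted p under 0.05 was found for 1 stromal, 1 endothelial and 1 macrophage marker, beside 4195 of all 15645 genes. Summed levels on the arrays labelled control siRNA and FOXL2 siRNA were from 13.77 to 14.18 and from 14.08 to 14.16 for stroma, from 10.12 to 10.84 and from 10.65 to 10.94 for endothelium, from 9.10 to 9.23 and from 9.19 to 9.48 for macrophages, and from 6.78 to 7.12 and from 6.80 to 7.06 for the oocyte.

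The summed level of 6 Sertoli cell markers, genes of the testis counterpart of granulosa cells, was from 11.23 to 11.70 on the arrays labelled control siRNA and from 12.16 to 12.67 on those labelled FOXL2 siRNA. Of these, Sox9, Sox8, Dhh and Gata1 were called higher on average, and Dmrt1 and Cldn11 were not called. With Gata1 counted, that is 66.7% called, beside 12.6% of all genes tested. Gata1 was above background on the 4 arrays labelled FOXL2 siRNA only. Its call thus rests on the arrays where it is high and is not taken as support here. The granulosa, theca and Sertoli markers that were called moved with the same labels as Foxo1, Foxp1, Foxm1, Foxs1 and Foxo6, and their part in those changes was not tested.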

How the data were processed

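Total RNA (50 ng) per culture was read on a one-colour Agilent array designed on mm9, after amplification and Cy3 labelling. The deposited scanner files hold spot intensity from Agilent Feature Extraction 11.5.1.1, background-subtracted and spatially detrended by the authors' software, with no scaling between arrays. The authors' value table is on a log2 scale and served as an alternative. Its values matched log2 of the mean probe intensity minus the 75th percentile, within 0.001 after a constant shift per array, at 98.7 to 98.9% of values.

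Here, control spots (3671 of 62976) and 42 non-uniform probes were left out, leaving 55639 probes. Arrays were scaled to their 75th percentile (275.1 to 367.5 units), probes averaged per Entrez ID on the linear scale, genes with a median under 10 dropped, and log2 values fitted with limma 3.58.1 (R 4.3.3) as 4 group means over 8 arrays with an intensity trend (4 residual degrees of freedom). All p-values are two-sided, Benjamini-Hochberg adjusted over 15645 genes or 31521 probes, threshold 0.05. Per array 51.3 to 55.6% of probes were well above background and 0 were saturated. Arrays carry no read depth, and 2 per group limit precision.

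The methods scale to the 75th centile, average transcripts, filter at 10 and then subtract a median per replicate, a step left out of the main values. Groups came from sample titles. Nothing states that same-numbered arrays of different groups share mice, and p-values measure the spread between the arrays. The members and gene lists were chosen with earlier results of these data known. Named in the text are all members and probes, up to 3 largest rises and falls called per list and comparison, and the 5 genes most like each of the members called on average. Gene symbols, promoter windows and spans came from RefSeq (GRCm38.p6), and 22349 gene IDs had a symbol. The fit was checked on simulated data with independent noise for each array, which leaves out any replicate difference shared between groups. Tables and plots used Python 3.11.15, pandas 2.3.3 and matplotlib 3.10.9. Probe positions and protein sequences were not used here. The values of 1 called AKT pathway gene are not reported here.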

Additional observations from a re-analysis of the deposited data

Results flagged for a closer look

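Fbxo32, a FOXO target gene for a muscle ubiquitin ligase, was the only gene of the lists whose E2 effect differed between the siRNAs by limma. Its gene signal averaged 8.15 ± 0.00 (SD, n = 2) with control siRNA and vehicle, 7.24 ± 0.17 with control siRNA and E2, 7.00 ± 0.02 with FOXL2 siRNA and vehicle, and 7.48 ± 0.04 with FOXL2 siRNA and E2. The difference of both E2 effects was 1.38 ± 0.19 (limma adjusted p = 0.0446, over 15645 genes, beside 0.243% of genes called). It was lost when any of the 8 arrays was left out, with adjusted p from 0.123 to 0.224, and over the other processing choices it ranged from 1.03 to 1.40 with adjusted p from 0.0392 to 0.138. No group holds the 4 arrays that a test for a deviating array needs.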

How the results depend on the processing

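The averaged siRNA comparison called 2 members, the same count under each of the 8 other processing choices and under the replicate block, and from 1 to 2 with 1 array left out. With vehicle it called 1 member, 0 from the brightest probe and 0 with no intensity trend, and from 0 to 1 with 1 array left out. With E2 it called 1 member, 0 with normexp, 0 with no filter, 0 with no intensity trend, 0 with only the groups compared, and 0 without each array. The E2 comparisons called 0 members in every setting but the replicate block. Single probes called on average were 5, with 2 under no filter, 2 with no intensity trend, and from 1 to 4 with 1 array left out. Normexp used the median spot signal, since the files hold no mean signal, and was chosen after seeing the files. With an array left out, the remaining array of its group is assumed to vary like the other groups.

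The labels give the same replicate numbers to all groups without saying that a number marks shared mice. Replicate differences of the 6 pairs of groups correlated at 0.33 to 0.45 across genes. With replicate number as a block (replicate block), the counts of members called were 1 with vehicle, 2 with E2 (Foxp1 and Foxo1, the latter at -0.46, limma adjusted p = 0.00384), 2 averaged, and 1 for the difference of the E2 effects, which was Foxo1 at 0.74 (limma adjusted p = 0.00887), while all genes called on average went from 1967 to 4327. AKT pathway genes called on average went from 7 to 13 and FOXO targets from 7 to 14. Of 117 single values tabulated, 107 kept their side of the threshold under the block and 10 passed it newly. Of 972 values under other processing, 875 kept direction and side, 59 lost their call, 1 gained it and 37 uncalled values changed sign. No called value changed sign in any setting. Arrays carry no counts, so signal over background limits Foxo4, Foxc1 and Foxc2.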
